A study of Mus musculus with 24 samples.

Results

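The miR-17-92 cluster and its paralogs were followed in RNA from mouse serum exosomes, small vesicles that cells release into blood. The members were every probe of the deposited table for miR-17, miR-18a, miR-19a, miR-19b, miR-20a, miR-92a, miR-25, miR-93, miR-106a and miR-106b, which gave 9 of the 566 mouse miRNA probes: mmu-miR-106a+mmu-miR-17, mmu-miR-20a+mmu-miR-20b, mmu-miR-93, mmu-miR-106b, mmu-miR-18a, mmu-miR-19a, mmu-miR-19b, mmu-miR-92a and mmu-miR-25. A probe shared by 2 miRNAs was counted once: miR-17 is read together with miR-106a, and miR-20a together with miR-20b, so the members of such a probe cannot be told apart.

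The 24 serum samples form 4 groups of 6, all from male mice of the strain C57BL/6N, aged 40 weeks. WD+CCl4 mice received a western diet, made of a high-fat feed and drinking water sweetened with fructose (23.1 g/L) and glucose (18.9 g/L), and weekly injections of the liver toxin carbon tetrachloride into the abdomen. ND+CCl4 mice received chow and the toxin, WD+oil mice the western diet and corn oil, and ND+oil mice chow and corn oil. The labels call these groups HCC (liver cancer), cirrhosis, NASH (fatty liver with inflammation) and normal, in that order; no liver readout was analysed here. RNA was counted on the NanoString nCounter Mouse v1 panel, in which barcoded probes are counted one by one. The labels do not say that each sample is a separate animal or whether serum was pooled, and the spread behind each p-value may then be partly technical.

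The cluster is transcribed as 1 precursor that is cut into several mature miRNAs, and its paralogs arose from it by duplication. A miRNA recognises messenger RNAs mainly through its seed, a short stretch near its 5′ end, so members with a shared seed have largely shared targets. The cluster is induced by MYC and is known as an oncogene in lymphoma and other cancers, and its members repress cell-cycle inhibitors and pro-apoptotic genes. In blood, several of its members are abundant in red cells and platelets.

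The mature sequences are shown because they fix which members share a seed and which a hybridisation probe could read together. The 9 probes name 11 miRNAs, and all 11 were found in RefSeq's miRNA table (GRCm38.p6). The miR-17-92 cluster lies on the + strand at chr14:115043671-115044506 with 6 hairpins. The miR-106a-363 cluster lies on the - strand at chrX:52741693-52742567 with 6 hairpins, and the miR-106b-25 cluster on the - strand at chr5:138165321-138165818 with 3 hairpins, within the gene Mcm7. miR-19b and miR-92a have a copy on both chromosome 14 and chromosome X, with the same mature sequence. Capitals mark the seed, bases 2 to 8. Of the 4 seeds, the first is AAAGUGC, carried by 6 of the miRNAs.
miR-17-5p: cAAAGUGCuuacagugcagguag
miR-106a-5p: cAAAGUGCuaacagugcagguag
miR-20a-5p: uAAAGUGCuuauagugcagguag
miR-20b-5p: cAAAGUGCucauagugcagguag
miR-93-5p: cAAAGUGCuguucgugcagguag
miR-106b-5p: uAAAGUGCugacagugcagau
The miR-18 seed differs from it inside the capitals.
miR-18a-5p: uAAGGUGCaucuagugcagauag
The miR-19 members share the third seed.
miR-19a-3p: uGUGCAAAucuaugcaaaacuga
miR-19b-3p: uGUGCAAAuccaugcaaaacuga
The miR-25 and miR-92 members share the fourth.
miR-92a-3p: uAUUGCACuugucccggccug
miR-25-3p: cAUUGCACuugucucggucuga
Counted from 1 at the 5′ end, miR-106a differs from miR-17 only by U10A, and miR-20b differs from miR-20a by U1C and U10C. miR-19b differs from miR-19a by U11C; these have separate probes. miR-20a differs from miR-17 by C1U and C12U, outside the seed. The probe sequences themselves were not used here.

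Depth differed widely between libraries. Total counts of mouse miRNAs were 42478 to 1496798 per library (median 207119.5), and 69 to 213 miRNAs lay above the detection limit, the mean plus 2 SD of the 8 negative control probes. By group, totals were 42478 to 204535 in ND+oil, 48664 to 265260 in WD+oil, 46576 to 1496798 in ND+CCl4 and 139911 to 1328891 in WD+CCl4. In replicates 4 to 6, every WD+oil total (241694 to 265260) exceeded every ND+oil total (178252 to 204535). WD+CCl4 totals were higher still there (326431 to 444729). The part of depth in the group differences was not tested. Replicates 1 of ND+CCl4 and of WD+CCl4 had the highest totals, 1496798 and 1328891, followed by ND+CCl4 replicate 5 with 1115402. Within their groups these replicates 1 also held the highest hepatocyte and the lowest platelet marker sums, given below. All values below are the authors' scaled counts, in which each library was multiplied by 1 factor of its own. They compare 1 probe across libraries, not probes with each other, since probes capture with different efficiency. A fall in these values can mean fewer vesicles of a source or less of the miRNA per vesicle. As the values are scaled library by library, a fall may also reflect a rise of other miRNAs. These readings cannot be told apart here.

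Of the 9 probes, 8 passed the filter for testing (above the limit in at least 6 of 24 libraries), which 158 of the 566 mouse miRNA probes passed. The probes for miR-17, miR-20a, miR-93, miR-106b, miR-19a and miR-25 were above the limit in 24 of 24 libraries and that for miR-19b in 23. miR-92a was above it in 14 of 24, so its level rests on few counts, 15 to 440 per library. miR-18a was not kept: it exceeded the limit in 3 of 24 libraries, by at most 1.35 times, with values of 6.85 to 52.2, and no group difference is given for it. It is encoded between miR-17 and miR-19a in the same precursor. Of the listed relatives of these clusters and seeds the table held 5 (miR-363, miR-18b, miR-92b, miR-32 and miR-367), and 0 of them exceeded the limit in any library.

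**Figure D1:**
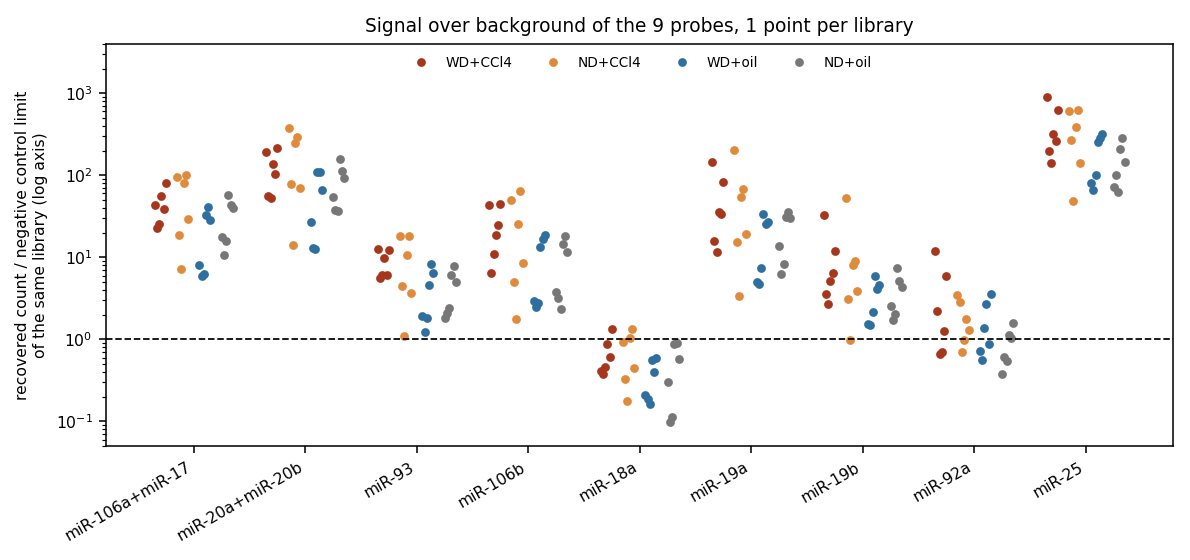
Recovered count of each of the 9 probes divided by the negative control limit of the same library (log axis), 1 point per library, coloured by group. miR-18a lies around or under the dashed line at 1, miR-92a straddles it, and miR-25 lies between 48.6 and 902.

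Every member call came from 2 probes with the seed AAAGUGC. In the main fits 1 of 8 members was called in WD+oil and in WD+CCl4, each against ND+oil. For western diet against chow over both injections it was 2 of 8. Over all 158 tested miRNAs the shares called were 10.8%, 15.8% and 20.3%. The probe for miR-20a and miR-20b, miRNAs known to target the E2F1 messenger, was called lower in each of these. The probe for miR-17 and miR-106a, known to target the cell-cycle inhibitor Cdkn1a, was called lower only over both injections. Their relatives miR-93 and miR-106b, with the same seed but from the chromosome 5 cluster, passed the test in none of the 7 comparisons, nor did miR-19a, miR-19b, miR-92a and miR-25; the alternatives run called none of these 6 either.

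The miR-20a+miR-20b probe read 3268, 3534, 4544, 4465, 4106 and 4622 in WD+CCl4 replicates 1 to 6, and 6552, 4863, 3389, 7189, 11500 and 4651 in ND+CCl4. It read 4515, 3562, 2056, 5243, 4204 and 3352 in WD+oil, and 9521, 6345, 7321, 9306, 5079 and 6632 in ND+oil. Every WD+CCl4 library lay below every ND+oil library. The WD+oil and ND+oil groups overlapped only through the highest WD+oil library and the lowest ND+oil library. ND+CCl4 spanned nearly the whole range, with its replicate 5 the highest of all 24 libraries.

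The miR-106a+miR-17 probe read 733, 1417, 2235, 1797, 1534 and 1746 in WD+CCl4 replicates 1 to 6, and 1612, 1149, 1726, 2395, 3946 and 1916 in ND+CCl4. It read 1345, 1618, 1015, 1559, 1606 and 1449 in WD+oil, and 3104, 1793, 3117, 3406, 1951 and 2892 in ND+oil. All WD+oil libraries lay below all ND+oil libraries. WD+CCl4 overlapped ND+oil at the low end of the ND+oil range, and ND+CCl4 replicate 5 was again the highest library.

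**Figure D2:**
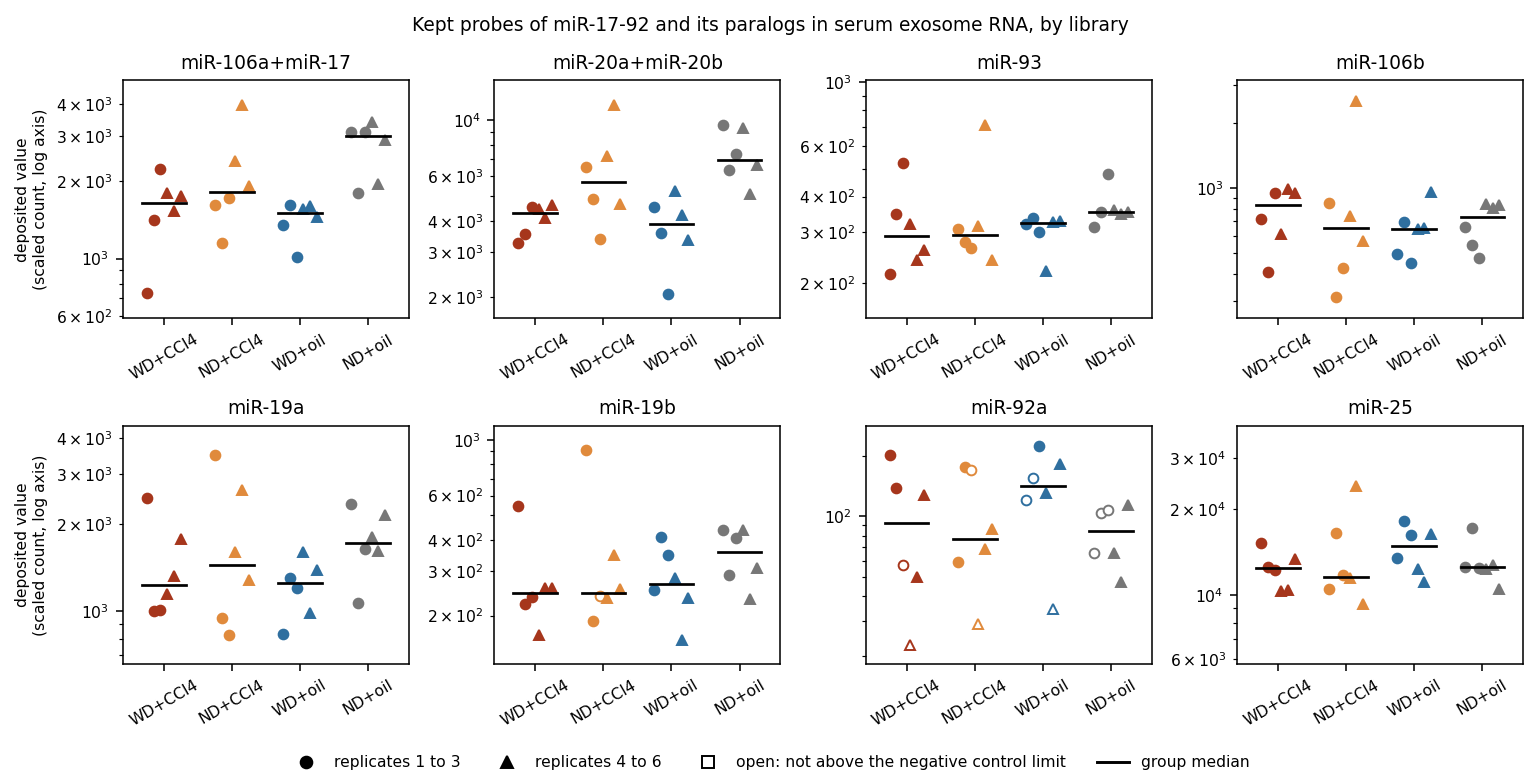
Deposited value of the 8 kept probes in every library (log axis), grouped as WD+CCl4, ND+CCl4, WD+oil and ND+oil, with a bar at the group median, circles for replicates 1 to 3 and triangles for 4 to 6. The ND+oil median of miR-106a+miR-17 (2998) stands above those of the other groups (1504 to 1821), while the medians of miR-93 lie between 291 and 354.

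The first comparison, WD+oil against ND+oil, asked what the western diet alone changed. The miR-20a+miR-20b probe fell to 0.51 of the ND+oil level (log2 difference -0.97, SE 0.28, 95% interval -1.55 to -0.39). Its adjusted p was 0.0257 (limma, Benjamini-Hochberg over 158 miRNAs), and 6 of 6 WD+oil libraries lay below the ND+oil mean. This was 1 of 8 members, beside 10.8% of all tested miRNAs called in either direction and 5.7% called lower. The miR-106a+miR-17 probe had a log2 difference of -0.90 (SE 0.30, limma adjusted p = 0.0524), which missed the threshold although the groups did not overlap; 7.59% of tested miRNAs were lower without overlap.

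WD+oil and ND+oil samples of the same number deviated together, and with the replicate number as a block both probes passed in limma, with adjusted p of 0.0190 for miR-20a+miR-20b and 0.0347 for miR-106a+miR-17. Without 1 of 6 libraries (ND+oil replicate 1, 3, 4 or 6, or WD+oil replicate 3 or 6) the miR-20a+miR-20b call was lost, with limma adjusted p of up to 0.0933. The miR-106a+miR-17 probe passed in 6 of 24 fits that left out 1 library: those without ND+oil replicate 2 or 5, ND+CCl4 replicate 1, 2 or 5, or WD+CCl4 replicate 1. Within replicates 1 to 3 the log2 difference was -1.25 for miR-20a+miR-20b and -0.99 for miR-106a+miR-17, and within replicates 4 to 6 it was -0.69 and -0.80. The direction was the same in both sets, and neither set alone passed the test. The miR-20a+miR-20b call also ended with median centring (-0.83, limma adjusted p = 0.0815), with spike-in scaling (-0.86, limma adjusted p = 0.920), without a filter (limma adjusted p = 0.177) and in edgeR (-0.78, adjusted p = 0.0972).

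Of the members with the same seed in the chromosome 5 cluster, 0 of 2 passed. miR-93 had 219 to 337 (median 322) in WD+oil and 313 to 478 (median 354) in ND+oil, a log2 difference of -0.27 (SE 0.27, limma adjusted p = 0.548). All 6 WD+oil libraries were below the ND+oil mean, but the ranges overlapped. miR-106b had 450 to 956 (median 648) in WD+oil and 473 to 841 (median 733) in ND+oil, a log2 difference of -0.11 (SE 0.37, limma adjusted p = 0.886); its sign turned under 4 alternatives. The 95% interval for miR-106b was -0.88 to 0.66, and overlapped that of miR-106a+miR-17, -1.51 to -0.28.

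The miR-19 members, known as the main oncogenic part of the cluster in mouse lymphoma, lay lower on average and did not pass. miR-19a had 830 to 1606 (median 1254) in WD+oil and 1063 to 2365 (median 1720) in ND+oil, a log2 difference of -0.53 (SE 0.34, limma adjusted p = 0.309). miR-19b had 160 to 412 (median 268) in WD+oil and 233 to 439 (median 357) in ND+oil, a log2 difference of -0.34 (SE 0.35, limma adjusted p = 0.552). Both groups overlapped for both miRNAs.

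The members with the seed AUUGCAC stood on the other side of 0 and also did not pass. miR-25, known to repress the Bim messenger, had 11076 to 18128 (median 14889) in WD+oil and 10503 to 17164 (median 12522) in ND+oil, a log2 difference of 0.17 (SE 0.23, limma adjusted p = 0.712). miR-92a, known to restrain blood vessel growth, had 34.4 to 225 (median 142) in WD+oil and 47.1 to 113 (median 84.6) in ND+oil, a log2 difference of 0.62 (SE 0.51, limma adjusted p = 0.439). Only 3 of 6 libraries of each group were above the detection limit for miR-92a, and its interval, -0.43 to 1.67, was the widest of the members.

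Over the 8 kept members, 6 lay lower in WD+oil, with a median log2 difference of -0.31. Over all 158 tested miRNAs, 91 lay lower, with a median of -0.14.

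**Figure D3:**
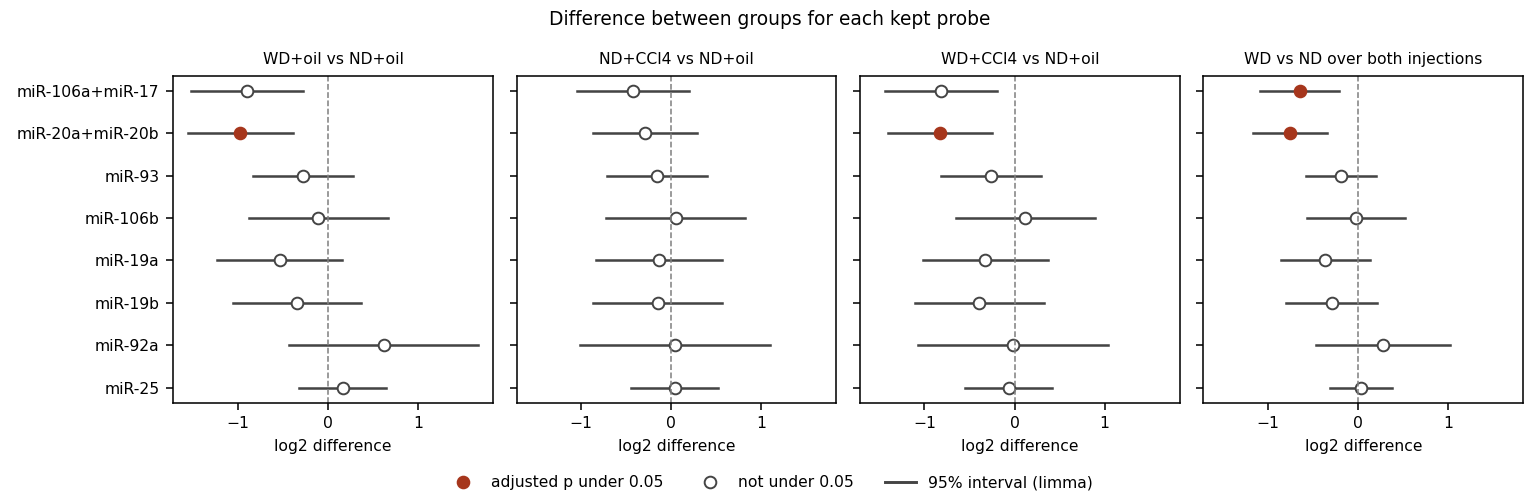
Log2 difference of each kept probe in 4 comparisons, with the 95% interval from limma; filled points have an adjusted p under 0.05. The probes for miR-20a+miR-20b and miR-106a+miR-17 lie left of 0 in all 4, but their intervals cross 0 in ND+CCl4 against ND+oil. Intervals of the other 6 probes cross 0 in all 4.

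WD+CCl4 against ND+oil set the combined treatment against mice given chow and corn oil. The miR-20a+miR-20b probe fell to 0.56 of the ND+oil level (log2 difference -0.83, SE 0.28, limma adjusted p = 0.0468, lower in 6 of 6 libraries). The groups did not overlap, as the highest WD+CCl4 value was 4622 and the lowest ND+oil value 5079. This was again 1 of 8 members, beside 15.8% of tested miRNAs called and 10.1% called lower; 4.43% were lower without overlap. The miR-106a+miR-17 probe had a log2 difference of -0.82 (SE 0.30, limma adjusted p = 0.0616), also lower in 6 of 6 libraries, and passed with the replicate number as a block (limma adjusted p = 0.0416). The other 6 members had log2 differences of -0.39 (miR-19b) to 0.12 (miR-106b) and none passed.

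The miR-20a+miR-20b call in this comparison lay close to the threshold. It passed in 8 of 24 limma fits that left out 1 library (those without ND+CCl4 replicate 1, 2, 3, 5 or 6, WD+oil replicate 3 or 4, or ND+oil replicate 5), with adjusted p of up to 0.0979 in the rest. It ended with median centring (-0.68, limma adjusted p = 0.115), without a filter (limma adjusted p = 0.141), in edgeR (-0.66, adjusted p = 0.104) and in DESeq2 (-0.64, adjusted p = 0.0658). Scaling by the spike-in probes moved the median of all tested miRNAs to a log2 difference of 1.24 in WD+CCl4, against -0.17 with the authors' scaling, and turned the sign of both probes. Relative to that median, miR-20a+miR-20b stood at -0.62 with spike-in scaling and at -0.66 with the authors' scaling. Both comparisons use the ND+oil samples, so their values for the members are not independent.

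ND+CCl4 against ND+oil asked what the toxin changed on chow. None of the 8 members passed in limma, edgeR or DESeq2 (0 had an unadjusted p under 0.05), where limma called 1.27% of tested miRNAs (35 of 158 had an unadjusted p under 0.05), edgeR called 12 of 158 and DESeq2 called 19. The smallest p belonged to miR-106a+miR-17, with a log2 difference of -0.42 (SE 0.30, limma adjusted p = 0.386, lower in 5 of 6 libraries). miR-20a+miR-20b had -0.29 (SE 0.28, limma adjusted p = 0.535). Replicate 5 of ND+CCl4 was the highest library of that group for miR-17, miR-20a, miR-93, miR-106b and miR-25. It also held the highest summed red cell markers of all libraries, 408426 scaled counts.

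Adding the toxin to the western diet, WD+CCl4 against WD+oil, gave calls for 0 of 8 members, and 0.0% of the 158 miRNAs were called by limma (8 had an unadjusted p under 0.05); edgeR and DESeq2 called 0 as well. The smallest p belonged to miR-92a, which read 201, 138, 57.3, 22.9, 49.7 and 127 in WD+CCl4 replicates 1 to 6, against 121, 154, 225, 130, 34.4 and 181 in WD+oil. The groups overlapped throughout (log2 difference -0.64, SE 0.51, limma adjusted p = 0.902). For miR-20a+miR-20b the log2 difference was 0.14 (SE 0.28) and for miR-106a+miR-17 0.08 (SE 0.30).

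WD+CCl4 against ND+CCl4, the diet under the toxin, also called none of the 8 members in limma, edgeR or DESeq2 (0 had an unadjusted p under 0.05), where limma called 0.633% of tested miRNAs, edgeR 3 of 158 and DESeq2 13. miR-20a+miR-20b was nearest, with a log2 difference of -0.54 (SE 0.28, limma adjusted p = 0.435), all 6 WD+CCl4 libraries lying below the ND+CCl4 mean but overlapping the ND+CCl4 range. miR-106a+miR-17 had -0.40 (SE 0.30, limma adjusted p = 0.770).

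Averaged over both injections, western diet against chow, 2 of 8 members passed, both lower, beside 20.3% of tested miRNAs called and 12.0% called lower. miR-20a+miR-20b had a log2 difference of -0.75 (SE 0.20, 95% interval -1.17 to -0.34, limma adjusted p = 0.0141). This call held in 24 of 24 fits that left out 1 library. miR-106a+miR-17 had -0.65 (SE 0.21, 95% interval -1.08 to -0.21, limma adjusted p = 0.0344). It was lost without ND+oil replicate 1, 3, 4 or 6, WD+oil replicate 3, WD+CCl4 replicate 1, or ND+CCl4 replicate 4, 5 or 6, with adjusted p of up to 0.0713. Both calls were made by edgeR and DESeq2 too, and both ended without a filter (limma adjusted p of 0.0755 for miR-20a+miR-20b and 0.147 for miR-106a+miR-17) and with spike-in scaling. The diet effect was not shown to depend on the toxin: in the interaction 0 of 8 members and 0.0% of all miRNAs passed in limma (6 of 158 had an unadjusted p under 0.05). The interaction estimate was 0.50 (SE 0.42) for miR-106a+miR-17 and 0.43 (SE 0.40) for miR-20a+miR-20b.

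Whether members of one family moved unequally was tested on the log2 ratio of each of 28 member pairs in the 3 comparisons with ND+oil, a step chosen after the values were seen. Of the 84 ratios, 17 had an exact two-sided permutation p under 0.05, and 0 passed after Benjamini-Hochberg adjustment (lowest 0.182). The log2 ratio of miR-106a+miR-17 to miR-106b averaged 1.17 ± 0.29 in WD+oil and 1.96 ± 0.49 in ND+oil (SD, n = 6 each), a difference of -0.79 (exact permutation p = 0.0087). Within same-numbered WD+oil and ND+oil samples, the ratios of both probes to miR-25 and to miR-93 were lower in WD+oil in 6 of 6 pairs (exact sign-flip permutation p = 0.0312 each, the smallest that 6 pairs can give). Of the 28 ratios tested in this way 6 had that p, and 0 passed after Benjamini-Hochberg adjustment (lowest 0.125). With 6 pairs, the adjusted test could pass only if most of the 28 ratios had that p. It therefore cannot decide whether members moved unequally.

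Markers of blood cells are given beside these results as summed scaled counts. Such a sum weighs most on the probe with the highest values, so single markers of a list can differ from it. Of the 9 blood cell marker miRNAs tested, 0 passed in WD+oil against ND+oil in limma (adjusted p of 0.0912 for miR-191 to 0.886). In WD+CCl4 against ND+oil, miR-191, miR-144, miR-142-3p and miR-181a were lower and passed (limma adjusted p of 0.0302 to 0.0426). For western diet against chow over both injections, miR-142-3p was lower and passed (log2 difference -1.02, limma adjusted p = 0.0403). So was miR-181a (-1.25, limma adjusted p = 0.0344). The other blood cell markers did not pass there, with miR-191 nearest (-0.56, limma adjusted p = 0.0870). The summed platelet list (miR-126-3p, miR-191 and miR-223; 3 of 3 kept, 0 at 0) ranged over 3127 to 27352 in WD+CCl4, 3413 to 24980 in ND+CCl4, 8982 to 22534 in WD+oil and 21703 to 32266 in ND+oil. The myeloid list (miR-223 and miR-142-3p, 2 of 2 kept) ranged over 2112 to 25109 in WD+CCl4, 2229 to 22118 in ND+CCl4, 7125 to 19567 in WD+oil and 19958 to 28484 in ND+oil. The lymphoid list had 2 of 3 markers kept and ranged over 653 to 5073 in WD+CCl4, 543 to 8750 in ND+CCl4, 2103 to 3763 in WD+oil and 3113 to 8525 in ND+oil. The part of platelets and white cells in the lower miR-17 and miR-20a values was not tested.

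The summed red cell list (miR-451, miR-144 and miR-486; 3 of 3 kept, 0 at 0) ranged over 19874 to 122646 in WD+CCl4, 31091 to 408426 in ND+CCl4, 33837 to 87100 in WD+oil and 52213 to 115468 in ND+oil. Its markers were not alike in WD+CCl4 against ND+oil, with log2 differences of -0.10 for miR-451, -0.69 for miR-486 and -1.64 for miR-144. The haemolysis index, log2 miR-451 minus log2 miR-23a, averaged 3.13 ± 1.09 in WD+CCl4, 3.85 ± 1.51 in ND+CCl4, 2.96 ± 0.62 in WD+oil and 3.45 ± 0.32 in ND+oil (SD, n = 6 each). With the index as a covariate miR-20a+miR-20b kept its call in WD+oil against ND+oil (log2 difference -0.83, limma adjusted p = 0.0219) and over both injections (-0.58, limma adjusted p = 0.0239). miR-106a+miR-17 lost its call over both injections (-0.45, limma adjusted p = 0.115). In WD+CCl4 against ND+oil both probes passed with the index, miR-20a+miR-20b at -0.74 (limma adjusted p = 0.0292) and miR-106a+miR-17 at -0.72 (limma adjusted p = 0.0498). Of the hepatocyte markers 4 of 5 were kept, and the summed list ranged over 4954 to 109839 in WD+CCl4, 2919 to 132186 in ND+CCl4, 7761 to 22420 in WD+oil and 1215 to 2222 in ND+oil. Against ND+oil, miR-122 was higher and passed in WD+oil, ND+CCl4 and WD+CCl4 (log2 difference 5.2, 4.7 and 5.3, limma adjusted p of 0.00027 to 0.0015). So was miR-192 (3.16, 3.24 and 3.36, limma adjusted p of 0.0083 to 0.0368). miR-148a passed only in WD+CCl4 (2.07, limma adjusted p = 0.0418), and miR-802 in none. The part of these rises in the lower miR-17 and miR-20a values was not tested.

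How the members varied together within groups is given as a description, over log2 deviations from the group means. All probes of a library share its depth and its scaling factor, and no test was made. miR-106a+miR-17 and miR-20a+miR-20b were each other's closest member (Pearson r = 0.71 over 24 libraries, 0.77 over 22 without the replicates 1 of both CCl4 groups). miR-19a and miR-19b, neighbours by seed, had r = 0.74 over 24 libraries and 0.50 over the same 22. miR-25 and miR-93, from the chromosome 5 cluster, had r = 0.47, and miR-92a was below 0 with miR-17, miR-20a, miR-93, miR-106b and miR-19a. Over the 28 pairs the median r was 0.20, with 6 pairs above 0.5 and 8 below 0.

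**Figure D4:**
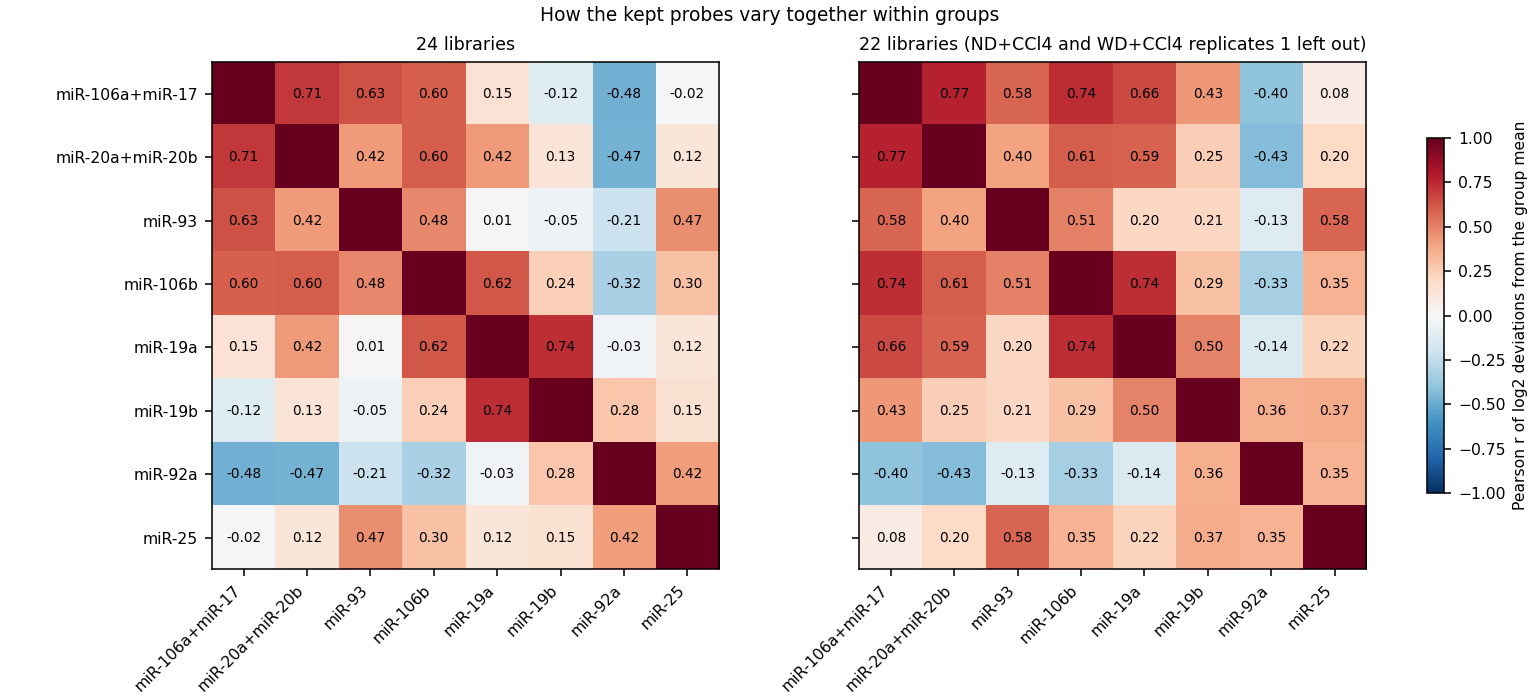
Pearson r between the kept probes over log2 deviations from the group means, in all 24 libraries and in the 22 left without ND+CCl4 replicate 1 and WD+CCl4 replicate 1. The probes for miR-17, miR-20a and miR-106b correlate at 0.60 to 0.71 in the first panel, and miR-92a is negative with both miR-17 and miR-20a in both panels.

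Of miRNAs outside the family, the 5 whose deviations were most like the mean of the 8 kept members were miR-148b (r = 0.68), miR-16 (0.66), miR-222 (0.66), miR-2135 (0.62) and miR-1944 (0.62). Taken singly, miR-106b was most like miR-16 (0.79), a miRNA abundant in red cells, and miR-20a+miR-20b most like let-7g (0.74). miR-106a+miR-17 was most like miR-301a (0.77), and miR-92a most like miR-423-5p (0.72). Both miR-19a (0.77) and miR-19b (0.85) were most like miR-148b, miR-25 was most like miR-222 (0.57), and miR-93 most like miR-370 (0.63). The haemolysis index correlated at 0.67 with miR-106a+miR-17, 0.66 with miR-20a+miR-20b and 0.68 with miR-93, and at -0.42 with miR-19b and -0.44 with miR-92a.

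Replicates 4 to 6 differed from replicates 1 to 3 across the table, in which 36.1% of the 158 miRNAs passed the test of that difference in limma. Of the members, 2 of 8 did: miR-106b was higher in replicates 4 to 6 (log2 difference 0.62, SE 0.23, limma adjusted p = 0.0405) and miR-92a was lower (-0.84, SE 0.32, limma adjusted p = 0.0405). The labels give no reason for the sets. In the oil groups they differed in depth, with totals of 42478 to 75896 in replicates 1 to 3 and 178252 to 265260 in replicates 4 to 6. In the CCl4 groups the totals of the sets overlapped. For miR-92a, ND+oil replicates 1 to 3 had 15, 19 and 19 counts, beside negative control means of 13.6, 11.9 and 14.4. The part of depth and background in these differences was not tested. Each set holds 3 samples of every group.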

How the data were processed

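Per the labels, serum exosome RNA was purified on miRNeasy micro columns and read on the nCounter panel. How exosomes were isolated, the cartridges and the software are not given there. The deposited values are signal, digital counts that the authors multiplied by 1 factor per library (0.397 to 5.72, found from the values). After division by it, all 14571 values above 1 lay within 0.05 of a whole count (100%), while 117 values stood at 1. Recovery and tests were checked on simulated data: for WD+oil against ND+oil, limma recovered 15% of simulated log2 falls of 1 and 86.5% of falls of 2 among 1000 features. Only a part of these features was changed, and the shares are over that part. The simulated noise was independent between features. As the falls of the called members were smaller than 1, a member that did not pass cannot be taken as unchanged.

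The test was limma 3.58.1 (R 4.3.3; lmFit, eBayes with trend, two-sided) on log2(value + 1), with 4 group means over 24 samples and Benjamini-Hochberg adjustment over 158 kept miRNAs per comparison. Fold changes on this scale understate changes of low probes. edgeR 4.0.16 and DESeq2 1.42.0 were run on recovered counts as alternatives, beside other scalings, filters, pseudocounts (0.5 and 10), covariates and left-out libraries. For the kept members, counting error at the lowest count was 2.13% (miR-25) to 25.8% (miR-92a) of the value. These figures leave out background: the lowest miR-92a count, 15 in ND+oil replicate 1, stood beside a negative control mean of 13.6 counts.

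Members are all named; those called, or with the smallest p of a comparison, are given by sample. Members and lists were chosen with earlier results of these data known. All 6 same-numbered samples deviated together (residual r above 0.1) between WD+oil and ND+oil (0.323 to 0.747) and between WD+CCl4 and ND+CCl4 (0.28 to 0.844), so fits with the replicate number as a block are given beside the main fits, which have no block; the labels state no pairing. For the remaining group pairs, 3 to 5 of the 6 correlations passed 0.1.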

Additional observations from a re-analysis of the deposited data

Results flagged for a closer look

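Dixon's test was run on log2 values in 32 sets of 6 libraries (8 kept members in 4 groups), and the values printed here are the deposited ones. Of these sets, 5 held a library far from the other 5. Chance marks about 1 in 20 such sets. Which sets are marked depends on the scale. The WD+CCl4 replicate 1 value of miR-19b was 544.4, against 166.6 to 258.3 in the other libraries of the group. This library is one of those with the highest totals. The WD+oil replicate 5 value of miR-92a was 34.4, against 120.9 to 225 in the others. Replicates 1, 2 and 5 of that group were all below their detection limits for miR-92a, with 31, 27 and 33 counts. The distance of replicate 5 from replicates 1 and 2 thus lies in the scaling factors, not in the counts. miR-93 was marked in 3 groups: ND+CCl4 replicate 5 had 712.5 (others 240.5 to 314.7), WD+oil replicate 4 had 219.2 (others 300 to 337.3), and ND+oil replicate 3 had 478.3 (others 313 to 358.2). Neither called probe, miR-20a+miR-20b or miR-106a+miR-17, was marked in any group.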

How the results depend on the processing

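The number of members called in WD+oil against ND+oil (1) was 0 without a filter, with median centring, with spike-in scaling, in edgeR and in either set of replicates alone, and 2 in DESeq2, with background subtraction, with only the compared groups, with the replicate block, with a term for the sets and without both number 1 CCl4 libraries. In WD+CCl4 against ND+oil (1) it was 0 without a filter, with median centring, with spike-in scaling, in edgeR, in DESeq2 and in either set alone, and 2 with the replicate block, the set term or the haemolysis covariate. Over both injections (2) it was 0 without a filter, with spike-in scaling and in replicates 1 to 3 alone, and 1 with median centring or the haemolysis covariate. Calls over all miRNAs moved too. In WD+oil against ND+oil (17) they were 5 without a filter, 12 with median centring, 1 with spike-in scaling, 10 in edgeR, 30 in DESeq2, 22 with background subtraction, 58 with only the compared groups, 37 with the block, 33 with the set term, 52 without both number 1 CCl4 libraries, and 2 and 40 in replicates 1 to 3 and 4 to 6 alone. In WD+CCl4 against ND+oil (25) they ranged over 2 (replicates 1 to 3 alone) to 47 (DESeq2 and the block), and over both injections (32) over 0 (spike-in scaling, replicates 1 to 3 alone) to 61 (replicates 4 to 6 alone). Leaving out 1 library gave 0 to 2, 0 to 2 and 1 to 2 member calls in these comparisons, and 0 in the other 4 comparisons. The replicate block changed no other member's call. Among log2 differences that changed sign, miR-106b in WD+oil against ND+oil was 0.0321 with median centring, 0.0027 with spike-in scaling, 0.0381 in edgeR and 0.0631 with the haemolysis covariate. With spike-in scaling miR-106a+miR-17 was 0.98 in ND+CCl4 against ND+oil and 0.63 in WD+CCl4 against ND+oil, and miR-20a+miR-20b was 1.11 and 0.62. miR-20a+miR-20b in ND+CCl4 against ND+oil was also 0.0263 in edgeR, 0.0240 in DESeq2 and 0.10 in replicates 4 to 6 alone, and its interaction was -0.0323 there. In WD+CCl4 against WD+oil, leaving out 1 library gave -0.036 to 0.285 for miR-106a+miR-17 and -0.023 to 0.247 for miR-20a+miR-20b. Fits without a filter test 566 probes, and sets alone hold 3 samples a group; the other causes were not tested. miR-92a and miR-18a are limited by counts near background.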
